A study of Homo sapiens with 9 samples.

Results

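Cholesterol synthesis and its control were followed through 31 genes in the established human embryonic stem cell line H9 after knockdown of the transcription factor TCF7L1. The set holds 19 enzymes that lead from acetyl-CoA to cholesterol, 7 genes that control the sterol regulatory element-binding proteins (SREBPs) and 5 genes of sterol transport and lipin. Members were chosen by name and looked up by the gene symbol deposited with the signals, among 20183 single gene symbols, and all 31 were found. SC4MOL and SC5DL are the deposited names of MSMO1 and SC5D. TCF7L1 siRNA was given to 3 samples, a non-silencing siRNA to 3 and no siRNA to 3, all labelled as day 3 and each hybridized to 1 Affymetrix whole-transcript array. Samples without siRNA are labelled untreated, so the delivery and the non-silencing siRNA cannot be told apart in a comparison with them. The labels state no dose, siRNA sequence or way of delivery. They also do not say whether replicates came from separate cultures, so p-values measure only the spread between these samples, which may be technical. RNA came from whole cultures of 1 line, in which fewer cells of a kind and less RNA per cell cannot be told apart.

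Cells build cholesterol from acetyl-CoA through mevalonate, farnesyl diphosphate, squalene and lanosterol. When sterols run low in the endoplasmic reticulum, SCAP escorts the SREBPs to the Golgi, where proteases release a fragment that enters the nucleus and switches on genes of the pathway. When sterols are plentiful, INSIG proteins hold SCAP back and the pathway quiets. Dividing cells, stem cells included, use the pathway to supply new membrane.

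None of the 31 genes passed the threshold (adjusted p under 0.05, limma) in any comparison. Against non-silencing siRNA, TCF7L1 siRNA called 0 of 31 members, where 0.0263% of the 22784 tested probe sets were called. For non-silencing siRNA against no siRNA the count was 0 of 31, with 0% of all tested probe sets called. TCF7L1 siRNA against no siRNA gave 0 of 31, beside 0.0527% called among all. At an unadjusted p under 0.05 each comparison held 1 member, beside 2.58% of all tested probe sets for TCF7L1 siRNA against non-silencing siRNA, 2.41% for non-silencing siRNA against no siRNA and 7.26% for TCF7L1 siRNA against no siRNA. It was ABCA1 between the siRNAs and STARD4 in both comparisons with no siRNA, and each lay lower in the siRNA group named first.

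The members nevertheless leaned one way when either siRNA was set against none. With non-silencing siRNA 26 of 31 genes lay below the samples without siRNA, and so did 26 of 31 with TCF7L1 siRNA, where 53.7% and 54.2% of all tested probe sets lay below. The median log2 difference of the members was -0.10 for non-silencing siRNA minus no siRNA and -0.12 for TCF7L1 siRNA minus no siRNA, beside -0.01 and -0.02 over all tested probe sets. As changes in signal those medians are -6.96% and -7.79%. Between TCF7L1 siRNA and non-silencing siRNA the median was -0.01, with 20 of 31 below 0 against 52.2% of all tested probe sets. The comparisons share samples, so they are not independent of one another. After the arrays were scaled to an equal spread of their signals, the members below 0 numbered 13 of 31 for non-silencing siRNA against no siRNA and 14 of 31 for TCF7L1 siRNA against no siRNA. The medians then were 0.02 and 0.02, beside 0.02 and 0.03 over all tested probe sets. Scaling also raised 9 bright markers of pluripotent stem cells in these comparisons, from medians of -0.02 and 0.02 to 0.19 and 0.21. Whether it lifts bright probe sets too far was not tested.

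**Figure D1:**
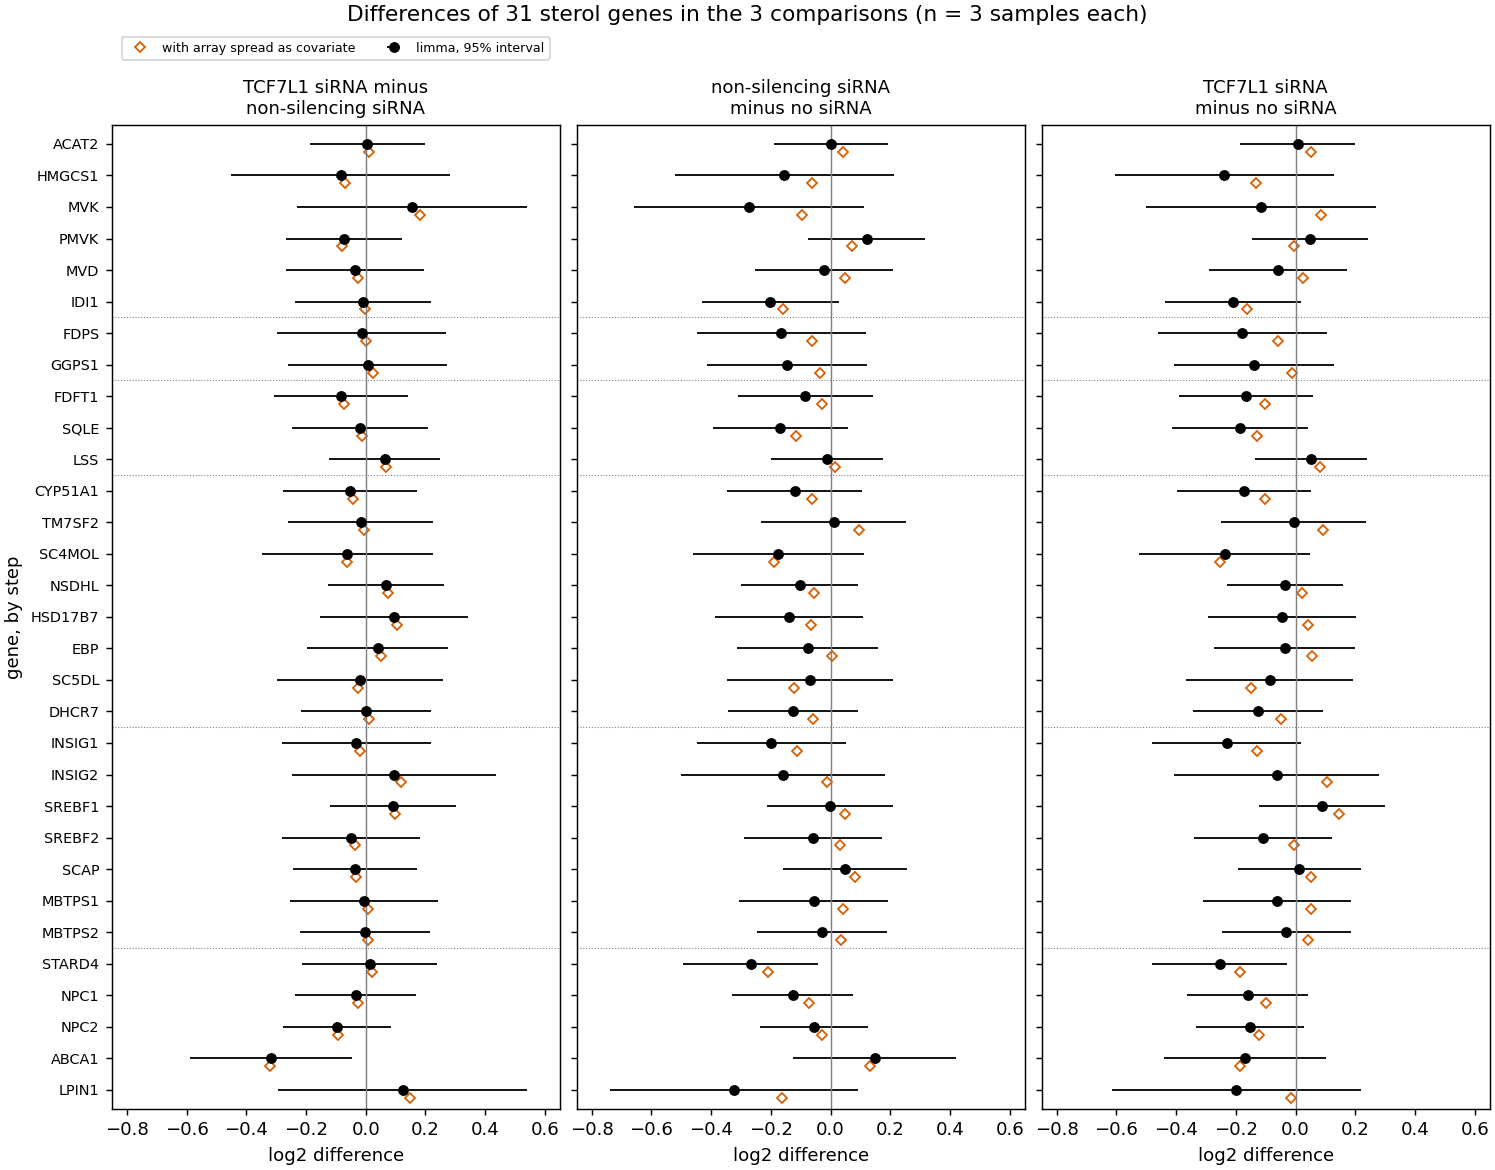
Log2 difference of each of the 31 genes (rows, by step of the pathway) in the 3 comparisons, as black points with 95% intervals from limma over 3 samples a group; open orange diamonds give the value with array spread as a covariate. Most black points in the comparisons with no siRNA lie left of 0, and most diamonds lie closer to 0.

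The knockdown itself was plain in these arrays. TCF7L1 gave 389, 346 and 352 with TCF7L1 siRNA, against 1709, 1703 and 1625 with non-silencing siRNA and 1474, 1842 and 1667 without siRNA. It fell by 2.17 against non-silencing siRNA and by 2.14 against no siRNA on the log2 scale (SE 0.10 in both, adjusted p = 7.26e-06 and 8.05e-06, limma). Arrays of a group correlated at 0.979 to 0.993, and arrays of different groups at 0.977 to 0.996. All 9 markers of pluripotent stem cells, among them POU5F1, SOX2 and LIN28A, lay at or above the 88.96th percentile of every array. Of markers of other cell types, 4 of 6 for fibroblasts, 2 of 3 for neural cells, 4 of 5 for endoderm, 4 of 4 for mesoderm and 2 of 3 for hepatocytes and steroid tissue were bright enough to test. None of these passed the threshold in any comparison. The 3 described next were chosen after their values were seen, as those with the largest log2 differences among the tested markers of other cell types, and their groups did not overlap in the comparisons given. COL1A1, a fibroblast collagen, gave 322, 282 and 316 with TCF7L1 siRNA, against 436, 404 and 441 with non-silencing siRNA and 430, 405 and 422 without siRNA, log2 differences of -0.46 and -0.43 (adjusted p = 0.296 and 0.298, limma). Of the 4 tested fibroblast markers 3 lay above 0 between the siRNAs (median 0.03), and COL1A1 was the 1 below. For TCF7L1 siRNA minus no siRNA 3 of these 4 lay below 0, and the highest was at 0.28. FOXA2, a transcription factor of endoderm, was at 0.60 for TCF7L1 siRNA minus no siRNA (adjusted p = 0.545, limma). CYP11A1, an enzyme of steroid tissue, was at -0.46 for TCF7L1 siRNA minus no siRNA and at -0.42 for non-silencing siRNA minus no siRNA (adjusted p = 0.633 and 0.927, limma). Their part in the sterol genes' values was not tested.

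Array spread, the interquartile range of log2(signal + 16) over all probe sets other than controls, varied more within the siRNA groups than without siRNA. It was 3.11, 2.78 and 2.97 in TCF7L1 siRNA replicates 1, 2 and 3, against 3.17, 2.95 and 2.79 with non-silencing siRNA and 3.03, 3.16 and 3.09 without siRNA. In both siRNA groups the sterol genes were highest on the widest array and lowest on the narrowest, whereas without siRNA they were highest on replicate 1, the narrowest of its group. Relative to each gene's own mean over the 9 arrays, the median member stood at 0.08, -0.13 and -0.06 on the TCF7L1 siRNA arrays, at 0.08, -0.05 and -0.15 on the non-silencing arrays and at 0.12, 0.08 and 0.01 on the arrays without siRNA (log2). Members above their own mean numbered 25, 4 and 7 of 31 on the TCF7L1 siRNA arrays, 28, 10 and 3 on the non-silencing arrays and 23, 26 and 17 without siRNA. Replicate 1 of each siRNA group resembled the samples without siRNA, while its other 2 replicates lay below them.

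**Figure D2:**
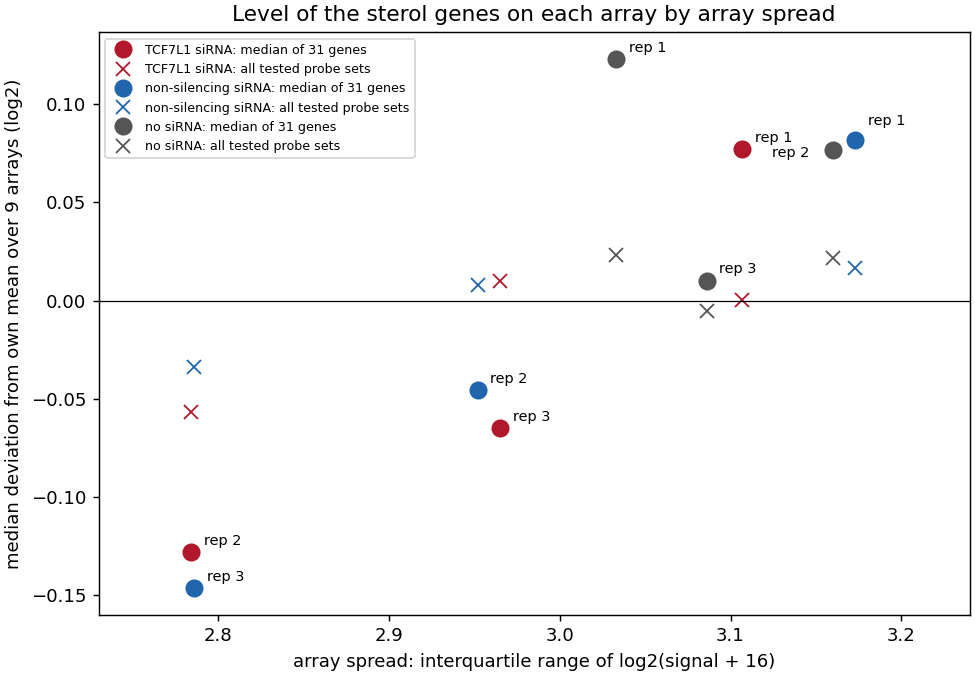
Median deviation of the 31 genes (filled circles) and of all tested probe sets (crosses) from their own mean over the 9 arrays, on the log2 scale, against array spread; colours mark the groups and labels the replicates. The narrowest arrays, TCF7L1 siRNA replicate 2 and non-silencing siRNA replicate 3, hold the lowest members' medians, -0.13 and -0.15.

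The widest and the narrowest array of a group were also set side by side gene by gene. TCF7L1 siRNA replicate 1, the widest of its group, exceeded replicate 2, the narrowest, in 27 of 31 members (87.1%) and in 57.05% of all tested probe sets, with a median difference of 0.19 for the members. Non-silencing siRNA replicate 1 exceeded replicate 3 in 28 of 31 members (90.3%) and in 57.24% of all tested probe sets, with a median of 0.25. Without siRNA, where the arrays differed less in spread, replicate 2 exceeded replicate 1 in 13 of 31 members (41.9%), beside 46.73% of all.

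Bright probe sets were low on the narrowest array of each siRNA group, too. When the tested probe sets were ranked by mean signal and divided into 4 classes of 5696, 21 members belonged to the brightest class, 7 to the next, 3 to the one after and 0 to the dimmest. On TCF7L1 siRNA replicate 2 the next brightest and the brightest class stood at -0.14 and -0.09, and on non-silencing siRNA replicate 3 at -0.12 and -0.07. The dimmest class stood at 0.14 and 0.15 on those arrays. Among the other arrays the distance between the bright classes and the members varied. On TCF7L1 siRNA replicate 1 the next brightest and the brightest class stood at 0.05 and 0.02, and the median member at 0.08. On non-silencing siRNA replicate 1 the next brightest and the brightest class stood at 0.07 and 0.05, and the median member at 0.08. On replicate 2 without siRNA the classes stood at 0.08 and 0.06 and the median member at 0.08. On replicate 3 without siRNA the classes stood at 0.02 and 0.0034 and the median member at 0.01. The next brightest and the brightest class stood at -0.0040 and 0.0023 on TCF7L1 siRNA replicate 3, where the median member was at -0.06, and at 0.03 and 0.04 on replicate 1 without siRNA, where it was at 0.12. On non-silencing siRNA replicate 2 the next brightest class stood at -0.0032 and the median member at -0.05. For non-silencing siRNA minus no siRNA, 67.22% and 67.21% of probe sets in the next brightest and the brightest class lay below 0, beside 83.9% of the members. For TCF7L1 siRNA minus no siRNA these shares were 67.26% and 71.42%, again beside 83.9% of the members. The widest TCF7L1 siRNA array exceeded the narrowest in 77.7% of the next brightest and 74.39% of the brightest class, beside 87.1% of the members. With non-silencing siRNA it did so in 76.79% and 80.9%, beside 90.3% of the members. Whether the members stand apart from probe sets of like brightness was not tested.

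With array spread as a covariate in the fit, its term was positive in 27 of 31 members. It passed the threshold in 6, all positive, namely MVK (adjusted p = 0.014), GGPS1 (0.019), INSIG2 (0.022), MBTPS1 (0.023), SREBF2 (0.024) and FDPS (0.0499, all limma). Among all tested probe sets it passed with a positive sign in 16% and with either sign in 35.7%. By class of mean signal it passed with a positive sign in 10.4% of the brightest and 29.9% of the next brightest. In the class after these it did so in 19%, and in the dimmest in 4.78%. Array spread was computed from the same signals, so the term is not an independent test of these genes. Whether the members exceed probe sets of like brightness in this was not tested. The 4 members of negative sign were PMVK, SC4MOL, SC5DL and ABCA1. The count of 6 changed with the arrays in the fit. It was 0 without TCF7L1 siRNA replicate 1 or 2 or non-silencing siRNA replicate 3, 1 without non-silencing siRNA replicate 1, 13 without replicate 1 of the samples given no siRNA, and 5 to 7 when any one of the other 4 arrays was left out. In this fit 19 of 31 members lay below 0 for non-silencing siRNA minus no siRNA and 18 of 31 for TCF7L1 siRNA minus no siRNA, with medians of -0.03 and -0.01. The narrowest arrays belonged to the siRNA groups, so this term, like scaling to equal spread, can take up part of a difference between groups. For TCF7L1 siRNA minus non-silencing siRNA 16 of 31 lay below 0. No member passed in this fit, where 0.11% of tested probe sets passed between the siRNAs, 0% for non-silencing siRNA against no siRNA and 0.0878% for TCF7L1 siRNA against no siRNA.

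**Figure D3:**
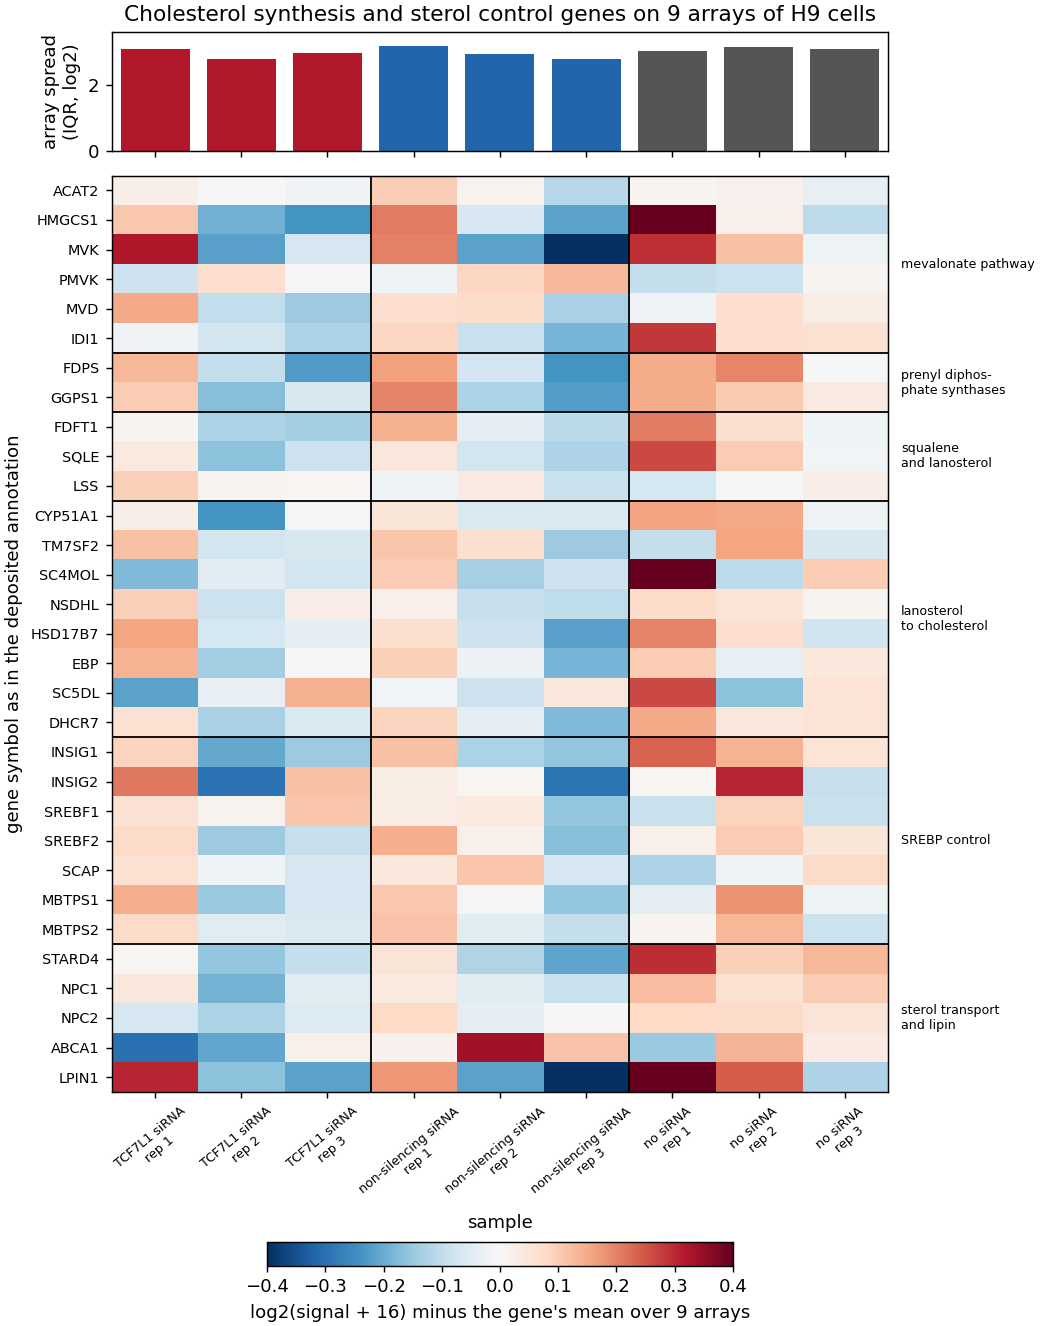
Log2(signal + 16) of each gene minus its mean over 9 arrays, as colour (red above, blue below; values past the ends of the scale take the end colour), with genes in rows by pathway step and samples in columns. The bars above give array spread, and the bluest columns stand under the shortest bars of each siRNA group.

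The promoters were read to show what sequence the members share, since most are known targets of SREBPs. RefSeq (GRCh38.p14) gave 39 promoters of 300 bases, 250 before and 50 after the annotated start, for 28 of the 31 genes; ACAT2, FDFT1 and SQLE were not matched. Searched on both strands were the classical sterol regulatory element of 10 letters bound by SREBPs, its looser form TCACNCCAC, which lies within it, CCAAT, the box bound by NF-Y, and GGGCGG, the box bound by Sp1. NF-Y and Sp1 are known to act together with SREBPs on sterol genes. The 250 bases before the start of 7 members follow, written 5′ to 3′ on the strand of the gene, with every match in capitals (ATTGG is CCAAT and CCGCCC is GGGCGG on the other strand). SREBF2 is shown for the element, and MVK, SC4MOL and NSDHL for their many CCAAT boxes. STARD4 and INSIG1 are shown for lower mean signals with siRNA, which did not pass the threshold, and PMVK as an enzyme with no CCAAT box.
SREBF2: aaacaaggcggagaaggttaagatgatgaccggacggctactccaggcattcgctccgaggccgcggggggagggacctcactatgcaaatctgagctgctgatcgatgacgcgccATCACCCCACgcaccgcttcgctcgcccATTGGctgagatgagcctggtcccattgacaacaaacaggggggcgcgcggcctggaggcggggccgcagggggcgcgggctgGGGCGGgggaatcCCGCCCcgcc
MVK: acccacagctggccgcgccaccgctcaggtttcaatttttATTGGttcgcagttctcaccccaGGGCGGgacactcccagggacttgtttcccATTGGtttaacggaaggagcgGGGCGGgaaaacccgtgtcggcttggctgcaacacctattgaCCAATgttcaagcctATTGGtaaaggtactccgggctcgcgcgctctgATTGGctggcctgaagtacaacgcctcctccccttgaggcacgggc
SC4MOL: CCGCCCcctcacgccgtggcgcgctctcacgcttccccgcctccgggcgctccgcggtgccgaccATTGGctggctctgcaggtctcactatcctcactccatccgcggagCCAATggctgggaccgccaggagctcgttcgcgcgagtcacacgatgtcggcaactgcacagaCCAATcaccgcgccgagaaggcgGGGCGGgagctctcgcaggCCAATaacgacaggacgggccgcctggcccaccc
NSDHL: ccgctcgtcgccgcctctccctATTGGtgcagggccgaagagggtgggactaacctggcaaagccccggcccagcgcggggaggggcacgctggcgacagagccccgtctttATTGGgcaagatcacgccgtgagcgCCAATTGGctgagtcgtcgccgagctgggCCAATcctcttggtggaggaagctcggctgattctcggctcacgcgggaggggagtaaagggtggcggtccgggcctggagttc
STARD4: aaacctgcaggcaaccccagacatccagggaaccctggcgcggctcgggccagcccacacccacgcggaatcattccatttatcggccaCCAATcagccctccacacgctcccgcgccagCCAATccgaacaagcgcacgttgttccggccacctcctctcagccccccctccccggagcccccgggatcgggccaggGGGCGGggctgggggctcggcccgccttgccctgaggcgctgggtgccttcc
INSIG1: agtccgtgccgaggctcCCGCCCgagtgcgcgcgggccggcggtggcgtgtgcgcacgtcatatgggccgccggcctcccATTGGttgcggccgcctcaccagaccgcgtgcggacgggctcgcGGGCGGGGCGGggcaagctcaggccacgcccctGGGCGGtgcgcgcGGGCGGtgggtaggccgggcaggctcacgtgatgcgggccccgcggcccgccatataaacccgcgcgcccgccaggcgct
PMVK: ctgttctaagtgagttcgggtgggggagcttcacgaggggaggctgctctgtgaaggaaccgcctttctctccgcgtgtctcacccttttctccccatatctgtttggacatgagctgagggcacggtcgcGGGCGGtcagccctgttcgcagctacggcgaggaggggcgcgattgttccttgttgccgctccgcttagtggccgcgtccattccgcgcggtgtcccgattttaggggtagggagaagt

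These stretches are chr22:41832855-41833104 for SREBF2, chr12:109573544-109573793 for MVK, chr4:165327419-165327668 for SC4MOL, chrX:152830813-152831062 for NSDHL and chr7:155297628-155297877 for INSIG1, all on the plus strand. Those of STARD4, chr5:111512536-111512785, and PMVK, chr1:154936720-154936969, lie on the minus strand. SREBF2, the gene of SREBP-2 itself, was the only member with the classical element, the longest run of capitals in its sequence, at -134 to -125 from its start and followed by a CCAAT box at -106 to -102. This is 1 of 28 member genes (3.57%), where 0.0586% of all genes in the table hold it. TCACNCCAC was found in the same place and in no other member, while 1.39% of all genes hold it. Only these spellings were searched, so an element spelled otherwise would be missed, and its absence from other members was not shown.

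CCAAT boxes were frequent among the enzymes. At least 1 lay in 14 of 16 enzyme genes (87.5%), beside 42.1% of genes tested on the arrays and 39.7% of all genes, and 2 or more lay in 10 of 16 (62.5%), beside 14.9% and 12.9%. MVK and NSDHL had 5 each, counting both strands of the overlapping box in NSDHL, and SC4MOL had 4. Among genes of control, transport and lipin 4 of 12 (33.3%) held one: SREBF2, INSIG1, STARD4 and NPC2. GGGCGG lay in 25 of 28 members (89.3%), beside 70.9% of genes tested on the arrays. These matches describe letters in a short window and draw no line to the signals below.

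**Figure D4:**
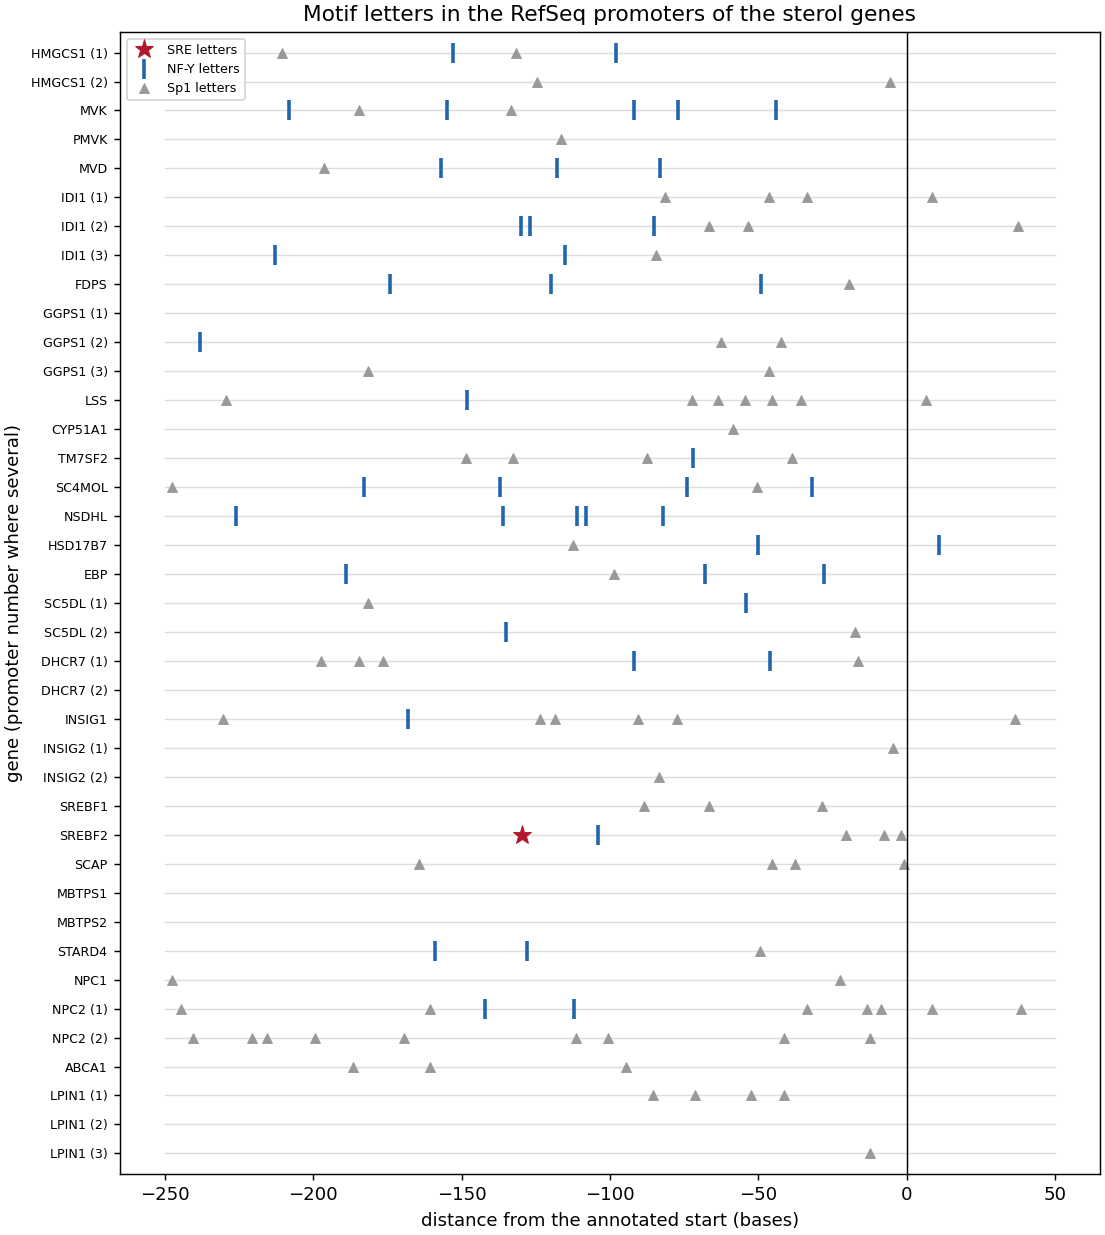
Places of the searched letters in the member promoters, against distance from the annotated start in bases; stars mark the sterol regulatory element, blue bars CCAAT and grey triangles GGGCGG, and genes with several promoters have a row for each. Blue bars gather in the upper rows, which hold the enzymes, and the 1 star is in SREBF2.

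The mevalonate pathway opens with ACAT2, which joins acetyl-CoA units, and HMGCS1, which makes HMG-CoA. ACAT2 was level, at 1282 ± 17.2 with TCF7L1 siRNA, 1279 ± 95.1 with non-silencing siRNA and 1276 ± 24.6 without siRNA (SD, n = 3 each). HMGCS1 gave 2836, 2299 and 2226 with TCF7L1 siRNA, against 3042, 2508 and 2266 with non-silencing siRNA and 3676, 2666 and 2443 without siRNA. A single sample without siRNA stood above all others, and the groups otherwise overlapped. The log2 difference of HMGCS1 was -0.24 for TCF7L1 siRNA minus no siRNA (SE 0.17) and -0.16 for non-silencing siRNA minus no siRNA, and these became -0.06 and 0.02 without that sample, replicate 1.

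MVK and PMVK, the kinases that phosphorylate mevalonate in turn, ran opposite ways across the arrays. MVK gave 325, 219 and 245 with TCF7L1 siRNA, against 298, 219 and 189 with non-silencing siRNA and 319, 280.5 and 253 without siRNA. Its samples overlapped in every comparison, and replicate 1 of each group was the highest. PMVK gave 146, 164 and 155 with TCF7L1 siRNA, against 154, 166 and 172 with non-silencing siRNA and 145, 146 and 157 without siRNA. For non-silencing siRNA minus no siRNA the log2 difference was -0.27 for MVK (SE 0.17, adjusted p = 0.927, limma) and 0.12 for PMVK (SE 0.09, adjusted p = 0.927). With array spread as a covariate the same difference of MVK was -0.09, and that of TCF7L1 siRNA minus no siRNA was 0.09 in place of -0.12.

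MVD, which decarboxylates mevalonate diphosphate, averaged 453 ± 53.5 with TCF7L1 siRNA, 464 ± 37.5 with non-silencing siRNA and 471 ± 13.6 without siRNA (SD, n = 3 each). IDI1, which interconverts the isoprene building blocks, gave 1155, 1112 and 1069 with TCF7L1 siRNA, against 1239, 1099 and 1026 with non-silencing siRNA and 1428, 1225 and 1221 without siRNA. All 3 samples with TCF7L1 siRNA lay below all 3 without siRNA, while non-silencing siRNA overlapped both groups. The log2 difference of IDI1 was -0.21 for TCF7L1 siRNA minus no siRNA (SE 0.10, adjusted p = 0.662, limma) and -0.20 for non-silencing siRNA minus no siRNA. Over the 6 genes of the mevalonate pathway the medians were -0.02 between the siRNAs, -0.09 for non-silencing siRNA minus no siRNA and -0.09 for TCF7L1 siRNA minus no siRNA, with 4 of 6 below 0 each time.

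At the branch to prenyl groups, FDPS makes farnesyl diphosphate and GGPS1 geranylgeranyl diphosphate, the lipid that anchors small GTPases. FDPS gave 898, 765 and 697 with TCF7L1 siRNA, against 919, 775 and 692 with non-silencing siRNA and 910, 940.1 and 817 without siRNA. GGPS1 gave 315, 259 and 279.6 with TCF7L1 siRNA, against 339, 267 and 249 with non-silencing siRNA and 326, 316 and 301 without siRNA. Replicate 1 of each siRNA group reached the level without siRNA for both genes, and the other replicates were lower. The log2 difference for TCF7L1 siRNA minus no siRNA was -0.18 for FDPS (SE 0.13) and -0.14 for GGPS1 (SE 0.12), and with array spread as a covariate it was -0.06 and -0.01. A second probe set annotated FDPS lies on the opposite strand, was dim (33.0 to 54.7) and is not counted among the members.

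Squalene and lanosterol are formed by FDFT1, squalene synthase, SQLE, squalene epoxidase, and LSS, lanosterol synthase. FDFT1 averaged 4444 ± 260 with TCF7L1 siRNA, 4712 ± 426 with non-silencing siRNA and 4995 ± 390 without siRNA (SD, n = 3 each). SQLE gave 2354, 2042 and 2160 with TCF7L1 siRNA, against 2363, 2176 and 2100 with non-silencing siRNA and 2753, 2454 and 2271 without siRNA. In SQLE each siRNA group overlapped the samples without siRNA only through its replicate 1. LSS did not share this order, with 955 ± 34.0 with TCF7L1 siRNA, 914 ± 39.5 with non-silencing siRNA and 921 ± 32.3 without siRNA. The log2 difference for TCF7L1 siRNA minus no siRNA was -0.17 for FDFT1, -0.19 for SQLE and 0.05 for LSS, with adjusted p of 0.674, 0.665 and 0.846 (limma).

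The conversion of lanosterol to cholesterol is carried out by 8 members. CYP51A1 removes a methyl group from lanosterol, TM7SF2 is a sterol reductase, SC4MOL and NSDHL remove the methyl groups at carbon 4 together with the ketoreductase HSD17B7, EBP shifts a double bond, SC5DL adds one and DHCR7 performs a last reduction. For non-silencing siRNA minus no siRNA 7 of 8 lay below 0 (median -0.11), and for TCF7L1 siRNA minus no siRNA 8 of 8 did (median -0.07). Between TCF7L1 siRNA and non-silencing siRNA the median was -0.01, with 5 of 8 below 0. With array spread as a covariate, 4 of 8 lay below 0 for TCF7L1 siRNA minus no siRNA (median -0.01). For non-silencing siRNA minus no siRNA it was 6 of 8 (median -0.06). After scaling to equal spread the counts were 2 of 8 and 3 of 8 (medians 0.06 and 0.01), in the same order.

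SC4MOL differed most from the samples without siRNA among these 8. It gave 2672, 2930 and 2865 with TCF7L1 siRNA, against 3241, 2757 and 2852 with non-silencing siRNA and 4034, 2808 and 3245 without siRNA. Replicate 1 without siRNA stood far above the other 8 samples, and the groups overlapped. The log2 difference was -0.24 for TCF7L1 siRNA minus no siRNA (SE 0.13, adjusted p = 0.665, limma) and -0.18 for non-silencing siRNA minus no siRNA, and these became -0.10 and -0.04 without that sample. SC5DL resembled SC4MOL in having its highest signal there: it gave 1632, 1853 and 2091 with TCF7L1 siRNA, against 1881, 1787 and 1954 with non-silencing siRNA and 2278, 1691 and 1967 without siRNA.

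CYP51A1, read by 9 probes only, averaged 919 ± 90.7 with TCF7L1 siRNA, 949.6 ± 41.2 with non-silencing siRNA and 1035 ± 73.5 without siRNA. DHCR7 averaged 1863 ± 127 with TCF7L1 siRNA, 1866 ± 171 with non-silencing siRNA and 2032 ± 84.5 without siRNA (SD, n = 3 each for both genes). The 95% interval of the difference of DHCR7 between the siRNAs ran from -0.22 to 0.22. NSDHL averaged 1100 ± 69.9 with TCF7L1 siRNA, 1047 ± 51.3 with non-silencing siRNA and 1126 ± 25.6 without siRNA. The remaining members of this step, TM7SF2, HSD17B7 and EBP, differed by -0.14 to 0.01 for non-silencing siRNA minus no siRNA and by -0.04 to -0.01 for TCF7L1 siRNA minus no siRNA.

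Among the control genes, INSIG1 and INSIG2 encode the retention proteins of the endoplasmic reticulum, and INSIG1 is itself a known target of SREBPs. INSIG1 gave 951, 773 and 805 with TCF7L1 siRNA, against 970, 817 and 799 with non-silencing siRNA and 1054, 986 and 928 without siRNA. Replicates 2 and 3 of each siRNA group lay below every sample without siRNA, and replicate 1 lay within their range. The log2 difference of INSIG1 was -0.23 for TCF7L1 siRNA minus no siRNA (SE 0.11, adjusted p = 0.662, limma), -0.20 for non-silencing siRNA minus no siRNA (adjusted p = 0.927) and -0.03 between the siRNAs. INSIG2, a dim gene, gave 115, 75.9 and 106 with TCF7L1 siRNA, against 99.2, 97.4 and 76.2 with non-silencing siRNA and 97.5, 124 and 89.9 without siRNA. Its lowest values fell on the narrowest array of each siRNA group.

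SREBF1 and SREBF2 encode the SREBPs, of which SREBP-2 is known mostly for cholesterol genes and SREBP-1 mostly for fatty acid genes. SREBF2 gave 1204, 1030 and 1069 with TCF7L1 siRNA, against 1262, 1156 and 1011 with non-silencing siRNA and 1157, 1224 and 1181 without siRNA. Samples of all groups overlapped, and the log2 difference for TCF7L1 siRNA minus no siRNA was -0.11 (SE 0.10) or -0.01 with array spread as a covariate. SREBF1 averaged 259 ± 9.31 with TCF7L1 siRNA, 242 ± 19.5 with non-silencing siRNA and 242.5 ± 18.6 without siRNA (SD, n = 3 each). Its difference between the siRNAs was 0.09, with a 95% interval from -0.12 to 0.30.

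The escort SCAP and the proteases MBTPS1 and MBTPS2, which free the SREBPs, differed by -0.06 to 0.05 on the log2 scale over the 3 comparisons. SCAP averaged 711 ± 32.6 with TCF7L1 siRNA, 730.0 ± 46.3 with non-silencing siRNA and 705 ± 50.2 without siRNA. MBTPS1 averaged 694 ± 75.4 with TCF7L1 siRNA, 696 ± 64.4 with non-silencing siRNA and 724 ± 63.0 without siRNA, and MBTPS2 averaged 634.5 ± 35.0 with TCF7L1 siRNA, 636 ± 50.2 with non-silencing siRNA and 649 ± 50.7 without siRNA (SD, n = 3 each for the 3 genes). Over the 7 control genes the median was -0.01 between the siRNAs, -0.06 for non-silencing siRNA minus no siRNA and -0.06 for TCF7L1 siRNA minus no siRNA.

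Of the transport genes STARD4 showed the clearest separation. STARD4 encodes a carrier that moves cholesterol through the cytosol and is a known target of SREBP-2; its probe set spans 110831731 to 110848621 on the minus strand of chromosome 5 (GRCh37). It gave 695, 619 and 646 with TCF7L1 siRNA, against 717, 634 and 595 with non-silencing siRNA and 852, 739 and 759 without siRNA. All 6 samples with siRNA lay below all 3 without, and the siRNA groups overlapped each other. The log2 difference was -0.27 for non-silencing siRNA minus no siRNA (SE 0.10, unadjusted p = 0.024, adjusted p = 0.927, limma) and -0.25 for TCF7L1 siRNA minus no siRNA (SE 0.10, unadjusted p = 0.030, adjusted p = 0.662). As changes in signal these are -16.9% and -16.2%. With array spread as a covariate they were -0.21 and -0.19, and over 21 alternatives they ran from -0.34 to -0.18 and from -0.30 to -0.15. An exact permutation test of 3 samples against 3 cannot go below a two-sided p of 0.1, which non-overlapping groups reach.

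NPC1 and NPC2 pass cholesterol out of late endosomes. NPC1 gave 861, 729 and 805 with TCF7L1 siRNA, against 858, 807 and 784 with non-silencing siRNA and 909, 871 and 896 without siRNA. NPC2 gave 1817, 1740 and 1833 with TCF7L1 siRNA, against 2011, 1855 and 1901 with non-silencing siRNA and 2012, 2008 and 1971 without siRNA. NPC1 was below the samples without siRNA in both siRNA groups with no overlap, and NPC2 was lowest in all 3 samples with TCF7L1 siRNA. The log2 difference for TCF7L1 siRNA minus no siRNA was -0.16 for NPC1 (SE 0.09, adjusted p = 0.666, limma) and -0.15 for NPC2 (SE 0.08, adjusted p = 0.665). With array spread as a covariate these differences were -0.10 and -0.12, and after scaling to equal spread -0.04 and 0.02. For NPC2 the difference between TCF7L1 siRNA and non-silencing siRNA was -0.10 (SE 0.08, adjusted p = 1).

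Groups without overlap were few and all lower. For TCF7L1 siRNA against non-silencing siRNA there was 1 such member, NPC2, where 3.12% of all tested probe sets were lower without overlap. For non-silencing siRNA against no siRNA there were 2, STARD4 and NPC1, beside 4.39%. For TCF7L1 siRNA against no siRNA there were 4, STARD4, IDI1, NPC1 and NPC2, beside 7.93%. No member was higher without overlap in any comparison, where 1.88%, 2.47% and 6.43% of all tested probe sets were.

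ABCA1, the exporter of cholesterol to lipoproteins and a known target of the liver X receptors, differed from the other transport genes in its order of groups. It gave 78.3, 84.5 and 102 with TCF7L1 siRNA, against 101, 130 and 109.5 with non-silencing siRNA and 88.7, 112 and 103 without siRNA. Its highest sample with TCF7L1 siRNA just reached the lowest with non-silencing siRNA, so the groups overlapped. The log2 difference was -0.32 for TCF7L1 siRNA minus non-silencing siRNA (SE 0.12, 95% interval from -0.59 to -0.05, unadjusted p = 0.026, adjusted p = 1, limma) and 0.15 for non-silencing siRNA minus no siRNA. ABCA1 was dim, between the 42.95th and the 52.88th percentile of its arrays.

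LPIN1, a phosphatidate phosphatase of lipid synthesis, was among the members that varied most between replicates. It gave 306, 216 and 209 with TCF7L1 siRNA, against 278, 209 and 180.5 with non-silencing siRNA and 329, 292 and 223 without siRNA. The samples overlapped in all comparisons, and the SD was 22.2% of the mean with TCF7L1 siRNA, 22.5% with non-silencing siRNA and 19.1% without siRNA. The log2 difference for non-silencing siRNA minus no siRNA was -0.32 (SE 0.19) and -0.16 with array spread as a covariate. Over the 5 genes of transport and lipin 5 of 5 lay below 0 for TCF7L1 siRNA minus no siRNA (median -0.17) and 4 of 5 for non-silencing siRNA minus no siRNA (median -0.13).

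**Figure D5:**
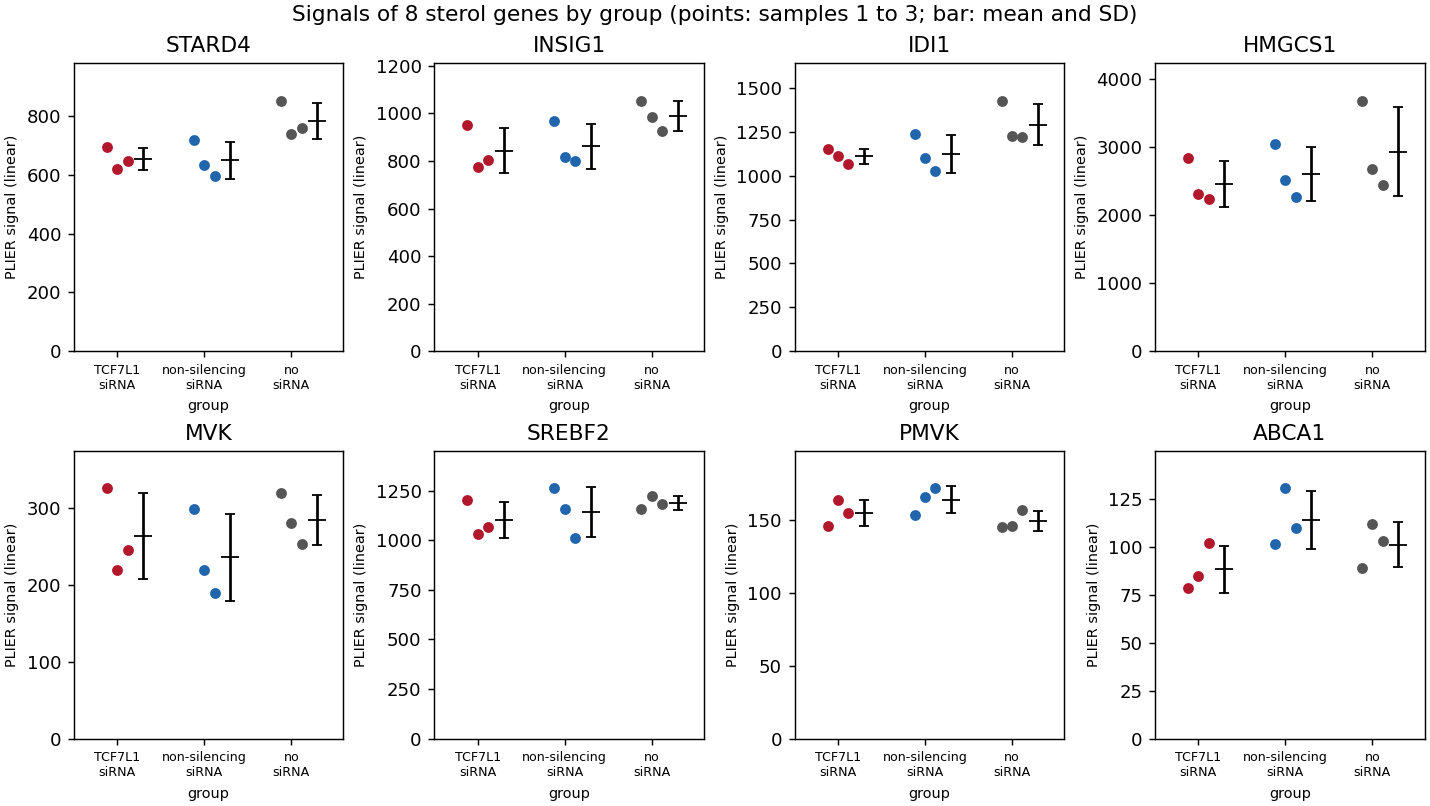
PLIER signals (linear, from 0) of 8 genes in the 3 groups; points are samples 1 to 3 from left to right and the black marks give mean and SD. STARD4 separates both siRNA groups from no siRNA, whereas INSIG1, HMGCS1 and MVK show a high first sample in each group.

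Genes next to the pathway were described by 3 further lists, and none of their members passed in any comparison. Of 9 genes of the fatty acid arm, the SREBP-1 side of lipid synthesis, 4 lay below 0 between the siRNAs, 7 for non-silencing siRNA minus no siRNA and 7 for TCF7L1 siRNA minus no siRNA. The smallest p belonged to ELOVL6 (0.09) and ACACA (0.04) between the siRNAs and to ACSS2 and ME1 in both comparisons with no siRNA (log2 differences). ACSS2, which makes acetyl-CoA from acetate, gave 608, 411 and 390.3 with TCF7L1 siRNA, against 681, 416 and 366 with non-silencing siRNA and 780, 652 and 558 without siRNA. Replicate 1 of each siRNA group lay within the range without siRNA and the other replicates far below it, and the log2 difference was -0.50 for TCF7L1 siRNA minus no siRNA and -0.47 for non-silencing siRNA minus no siRNA (SE 0.23 in both, adjusted p = 0.662 and 0.927, limma). ME1, malic enzyme, differed by -0.11 for TCF7L1 siRNA minus no siRNA and by -0.16 for non-silencing siRNA minus no siRNA.

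Of 12 genes of sterol sensing, oxysterol response and storage, 6 lay below 0 between the siRNAs, 9 for non-silencing siRNA minus no siRNA and 8 for TCF7L1 siRNA minus no siRNA. LIPA, the lysosomal acid lipase that frees cholesterol from its esters, gave 600.4, 463 and 514 with TCF7L1 siRNA, against 554, 466 and 442 with non-silencing siRNA and 688, 634 and 657 without siRNA. All 6 samples with siRNA lay below all 3 without, as for STARD4. Its log2 difference was -0.43 for non-silencing siRNA minus no siRNA (SE 0.12, adjusted p = 0.927, limma) and -0.33 for TCF7L1 siRNA minus no siRNA (SE 0.12, adjusted p = 0.651). ABCG1, another sterol exporter, differed by -0.17 for non-silencing siRNA minus no siRNA and -0.26 for TCF7L1 siRNA minus no siRNA. Between the siRNAs the smallest p belonged to SOAT1, which esterifies cholesterol, and MYLIP, a ubiquitin ligase of lipoprotein receptors. Their log2 differences were 0.19 and -0.18. Of 11 genes of the isoprenoid branch, 6 lay below 0 between the siRNAs, 5 for non-silencing siRNA minus no siRNA and 6 for TCF7L1 siRNA minus no siRNA. RABGGTB and COQ2 had the smallest p between the siRNAs (log2 differences 0.12 and -0.11), FNTB and PGGT1B for non-silencing siRNA minus no siRNA (0.13 and -0.12), and RABGGTB and FNTB for TCF7L1 siRNA minus no siRNA (0.16 and 0.17).

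The size of change that the arrays could show was limited by their number. The 95% interval of a member's difference reached a median of 0.231 to either side on the log2 scale, and the SE ran from 0.08 to 0.19. The differences of most members between either siRNA and none lay inside that reach, so neither a change nor its absence was shown at this depth of replication.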

How the data were processed

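The deposited values were linear intensity signals, 1 per probe set and array, made by the authors with Affymetrix Expression Console 1.1.1 and PLIER 2.0, per the submitters' processing notes. Its background and normalization settings were not given in the sources used here. Both deposited tables held the same values. Of 33297 probe sets, 4201 controls were left out. The other 29096 were kept when above the 25th percentile of their array on at least 3 arrays, which left 22784, all 31 members among them. After 16 was added, signals were put on the log2 scale, which understates changes of dim genes. limma 3.58.1 (R 4.3.3) fitted 1 mean per group over 9 arrays, with two-sided tests and Benjamini-Hochberg adjustment over all tested probe sets within each comparison. Precision is limited by 3 arrays a group. Signals of different genes come from different probes, so they were not compared gene against gene. The classes of mean signal, the percentiles and the word dim give only a rough rank of brightness. Positions of probe sets are on GRCh37: of 5959 whose annotation states such a position, 97.3% overlapped it.

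Members and lists were chosen with earlier results of these data known. All members were named; of the lists for the fatty acid arm, for sterol sensing, oxysterols and storage, and for the isoprenoid branch, genes past the threshold or else the 2 of smallest p in a comparison, and TCF7L1. Cell type markers were named outside this rule, after their values were seen. Alternatives were other offsets, filters, normalization, array spread as covariate or scaling, array weights, a replicate block and each array left out. The fit was tested on simulated data with independent noise for each probe set. Those data held no array-wide shift in spread, and the changes put in were larger than the differences of the members. That test therefore cannot tell how the fit handles differences as small as these. The similarity of the INSIG and SREBF proteins was not analysed here.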

Additional observations from a re-analysis of the deposited data

How the results depend on the processing

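Of 1947 member results under alternatives, 1896 moved by less than the SE, 48 moved by more and 3 were called. The calls came from array weights in TCF7L1 siRNA against no siRNA, namely FDPS (-0.31, adjusted p = 0.0472), INSIG1 (-0.27, adjusted p = 0.0404) and STARD4 (-0.25, adjusted p = 0.0390). That setting called 3 members and 2186 probe sets, its estimation stopped before convergence, and its weights ran from 0.000158 to 24.7. The median member difference was -0.0108 for TCF7L1 siRNA against no siRNA with array spread as covariate, and after scaling to equal spread it was 0.02 for that comparison (0.0234) and for non-silencing siRNA against no siRNA (0.0189). Scaling changed the sign of 12 members' differences for TCF7L1 siRNA against no siRNA, 13 for non-silencing siRNA against no siRNA and 8 between the siRNAs. Probe sets past the threshold numbered 25 for TCF7L1 siRNA against non-silencing siRNA and 20 for TCF7L1 siRNA against no siRNA with that covariate, in place of 6 and 12, and the last count was 5 without the 2 arrays of narrowest spread. When each array was left out in turn, TCF7L1 siRNA against no siRNA called 3 to 15 probe sets, and the median member difference ran from -0.07 to 0.05 between the siRNAs, from -0.16 to -0.06 for non-silencing siRNA against no siRNA and from -0.16 to -0.08 for TCF7L1 siRNA against no siRNA. The cause of these shifts was not tested.

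With the replicate number as a block, 11 probe sets passed between the siRNAs and 20 in TCF7L1 siRNA against no siRNA, with 0 members. Samples of the same number did not deviate together in every pair (residual correlations of 0.68, 0.17 and -0.04 between the siRNAs, 0.01, 0.18 and 0.36 for non-silencing siRNA and no siRNA, and -0.03, -0.26 and 0.29 for TCF7L1 siRNA and no siRNA), so the numbers were not taken as a pairing.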
